A study of Mus musculus with 10 samples.

Results

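The genes described here are 48 genes that move ions, water and small solutes across the surface of the colon, with the hormones, kinases and pump partners that control this traffic. They were chosen by name from a list and matched to the gene symbols of the array, each gene being read from a single probe set, chosen by its mean level. All 48 were found among the 19505 genes measured. Colon tissue came from wildtype C57BL/6 mice in which colitis was induced with 3% dextran sodium sulfate (DSS), a sulfated sugar polymer that damages the colon epithelium, in the drinking water and an antibody against PD1, an immune checkpoint receptor, given intraperitoneally. Both groups received DSS and anti-PD1. The ECP group (5 arrays) was also given transplanted donor cells treated by extracorporeal photopheresis (ECP), in which white blood cells are exposed to a photosensitiser and ultraviolet light, and the control group (5 arrays) was not. The tissue was complete colon, so epithelium, muscle and immune cells were measured together, and healthy mice are not among these arrays. Total RNA was measured on a gene expression array, and each value is a normalised log2 intensity, so that a difference of 1 is a doubling. Whether the arrays come from different mice is not in the labels, and the p-values measure only the spread between these samples. Values with ± are group means with their SD (n = 5 per group), ECP first.

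The colon takes back salt and water from its contents. In mature colonocytes, sodium enters through sodium-proton exchangers coupled to chloride-bicarbonate exchangers, and in the distal colon also through the epithelial sodium channel, which aldosterone raises through its receptor and the kinase SGK1. The basolateral sodium-potassium pump drives this flow, water follows, and crypt cells secrete chloride through CFTR. Short-chain fatty acids made by bacteria and some bile acids are taken up by carriers of their own, and loss of such transporters in inflamed colon is a known part of colitis diarrhoea.

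Upstream sequences are shown for 5 genes on which the results below turn: Nkain1 and Slc46a3, whose groups did not overlap, Sgk1, which varied from array to array with other sodium genes, and Slc51a and Slc51b, which encode the alpha and beta subunits of a bile acid exporter. They are the 250 bases before the transcript start in RefSeq (GRCm38.p6), read 5′ to 3′ in the direction of the transcript. The RefSeq promoter table held 35 of the 48 genes, with 45 promoters, and these genes and motifs were chosen after the values were seen. Motifs were searched on both strands, and matches are in capitals.

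The first pair shows GC boxes, the GGGCGG letters or, on the opposite strand, CCGCCC, to which Sp-family factors bind. They were present in 32.7% of the 32851 promoters of the table and in 26 of the 45 promoters of the transport genes.
Nkain1: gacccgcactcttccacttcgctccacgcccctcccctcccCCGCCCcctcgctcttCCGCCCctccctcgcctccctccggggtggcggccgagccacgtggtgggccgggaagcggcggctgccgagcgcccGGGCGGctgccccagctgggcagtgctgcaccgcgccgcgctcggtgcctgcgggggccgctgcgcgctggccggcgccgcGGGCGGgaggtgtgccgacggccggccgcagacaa
Slc46a3: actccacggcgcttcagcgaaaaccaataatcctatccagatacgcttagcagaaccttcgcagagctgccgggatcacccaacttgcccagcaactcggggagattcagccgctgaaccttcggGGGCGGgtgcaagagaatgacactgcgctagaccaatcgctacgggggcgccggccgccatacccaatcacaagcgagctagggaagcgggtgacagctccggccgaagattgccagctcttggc
The Nkain1 sequence lies at chr4:130574037-130574286 on the minus strand and holds 4 GC boxes, and the Slc46a3 sequence lies at chr5:147894816-147895065 on the minus strand and holds 1, starting 125 bases before the transcript start.

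The Sgk1 sequence is 1 of 6 Sgk1 promoters in the table and lies at chr10:21993640-21993889 on the plus strand. Its capitals mark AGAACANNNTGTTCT, the palindrome of steroid receptor half-sites (AGAACA) to which the glucocorticoid and mineralocorticoid receptors bind.
Sgk1: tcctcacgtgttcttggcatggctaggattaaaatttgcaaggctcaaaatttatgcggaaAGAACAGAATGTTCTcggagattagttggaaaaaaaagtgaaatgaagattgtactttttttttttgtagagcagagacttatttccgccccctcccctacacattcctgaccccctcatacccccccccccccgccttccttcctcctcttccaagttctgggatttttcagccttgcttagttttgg
The match, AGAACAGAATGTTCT, starts 189 bases before the transcript start. The palindrome was found in 3 of 32851 promoters (0.00913%). Of the 45 promoters of the transport genes it was in 1, that shown, so the other Sgk1 promoters did not hold it. The half-site AGAACA, which overlaps it, was in 16.1% of all promoters and in 5 of those 45, from 3 genes.

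The third pair shows the nuclear receptor half-site AGGTCA and its form on the opposite strand, which reads TGACCT. It was found in 14% of all promoters and in 11 of the 45 promoters of the transport genes.
Slc51a: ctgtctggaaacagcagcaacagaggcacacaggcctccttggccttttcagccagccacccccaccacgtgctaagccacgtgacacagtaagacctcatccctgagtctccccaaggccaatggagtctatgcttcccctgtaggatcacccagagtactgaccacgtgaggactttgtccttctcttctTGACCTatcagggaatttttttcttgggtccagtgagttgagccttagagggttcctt
Slc51b: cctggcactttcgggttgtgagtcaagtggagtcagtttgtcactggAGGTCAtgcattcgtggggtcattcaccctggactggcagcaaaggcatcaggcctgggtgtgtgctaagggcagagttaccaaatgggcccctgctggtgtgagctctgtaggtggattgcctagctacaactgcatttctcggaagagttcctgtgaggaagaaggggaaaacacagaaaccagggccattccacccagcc
The Slc51a sequence lies at chr16:32487880-32488129 on the minus strand with a half-site starting 58 bases before the transcript start, and the Slc51b sequence at chr9:65422774-65423023 on the minus strand with its half-site starting 203 bases before it. The promoter of Slc10a2, the other bile acid gene described below, holds 0 such half-sites and is not printed. A match in these windows is a description of letters and not evidence of binding.

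Control replicate 4 stood apart and is given first because it touches most values below. It was the lowest array in 20 of the 48 genes and the highest in 0, and it lay below the gene's mean over the 10 arrays in 42 of 48, with a median deviation of -0.25 against -0.05 to 0.11 on the other 9 arrays. The mean of 9 mature colonocyte markers was 11.11 on it and at least 11.62 on each of the others. The mean of 10 pan-epithelial markers was 11.54 on it, and that of 7 goblet cell markers was 11.95, each the lowest of the control group. It also had the highest means of B cell markers (8.66), T cell markers (6.98) and pancreatic acinar markers (12.20). Acinar means were 10.37, 5.78, 5.62 and 6.49 on control replicates 1, 2, 3 and 5, and 5.49 to 5.67 on ECP arrays. The part of these markers in the differences below was not tested, and the difference of each of the 48 genes is given with and without control replicate 4. In whole tissue, fewer colonocytes and less RNA per colonocyte cannot be told apart.

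**Figure D1:**
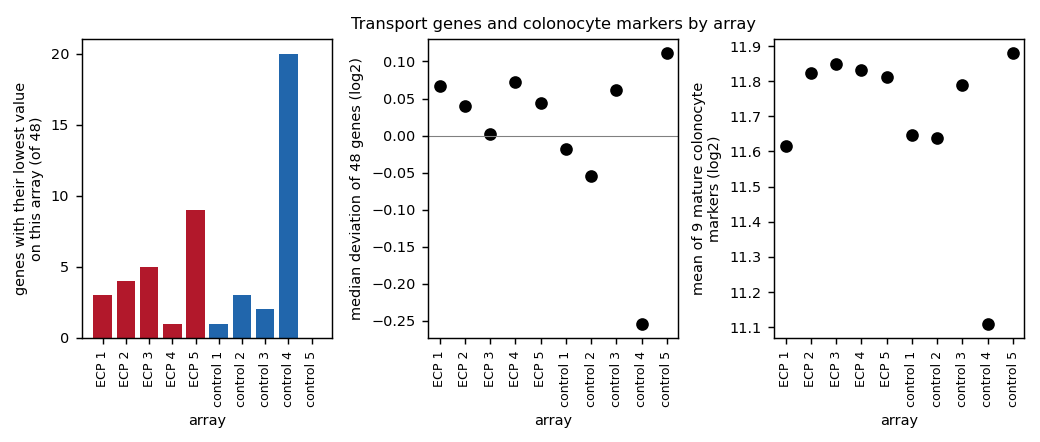
Each panel has the 10 arrays along the horizontal axis (ECP replicates first, then controls). The left panel counts the transport genes whose lowest value falls on that array (20 of 48 on control replicate 4), the middle panel plots the median deviation of the 48 genes in log2 units, and the right panel plots the mean log2 level of 9 mature colonocyte markers, lowest at 11.11 on control replicate 4.

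No transport gene passed an adjusted p of 0.05 between ECP and control arrays (limma over all 19505 genes), and neither did any other gene (0% of all genes). The 48 genes had a median difference of 0.05, ECP minus control, with a range from -0.64 (Scnn1g) to 0.96 (Slc51a), and 31 of them were higher on ECP arrays (64.6%, against 53.3% of all genes). For 27 genes the difference was under 0.1 in size. At an unadjusted p under 0.05 there were 2 genes (4.17%, against 5.08% of all genes), both higher (2.31% of all genes were higher at that p). The same 2 genes, Nkain1 and Slc46a3, had groups that did not overlap (4.17% of the 48, against 1.22% of all genes, and 0.39% for genes higher on ECP arrays). Without control replicate 4, 23 genes were higher and 25 lower (47.9% higher, against 51% of all genes), the median was -0.01, and 10 genes changed sign. In that comparison 4 genes (Nkain1, Slc46a3, Best2 and Slc15a1) had an unadjusted p under 0.05 (8.33%, against 6.4% of all genes), and 2 had groups that did not overlap (4.17%, against 2.28% of all genes). The number with an unadjusted p under 0.05 was 5 (10.4%) without ECP replicate 1, against 4.64% of all genes. It was 4 (8.33%) in each case when ECP replicate 2, control replicate 1 or control replicate 2 was left out alone, against 4.44%, 5.51% and 4.96% of all genes. Nkain1 and Slc46a3 were among them each time, joined by Scnn1g, Best2 and Aqp1 without ECP replicate 1, Kcnq1 and Aqp1 without ECP replicate 2, Slc51b and Slc15a1 without control replicate 1, and Scnn1g and Best2 without control replicate 2. The number was 3 (6.25%) without ECP replicate 3, where Slc10a2 joined them, and 3 (6.25%) without ECP replicate 5, where Car2 did. The shares of all genes were 4.47% and 5.06%.

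**Figure D2:**
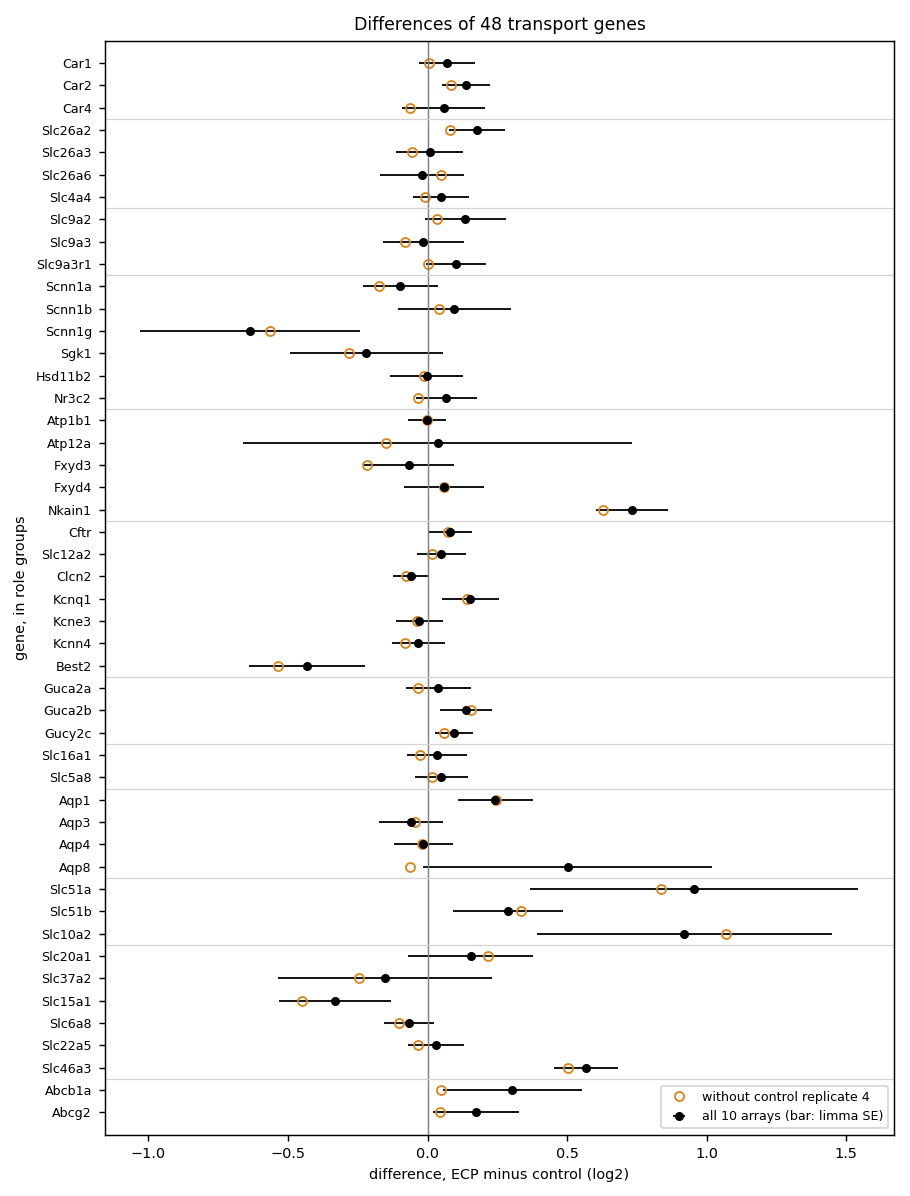
Difference between group means, ECP minus control in log2 units, for each of the 48 genes, with bars of 1 limma standard error on each side of the filled point. Open circles give the difference without control replicate 4, and most genes lie close to 0 while Nkain1 (0.73) and Slc46a3 (0.57) lie to the right with short bars.

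**Figure D3:**
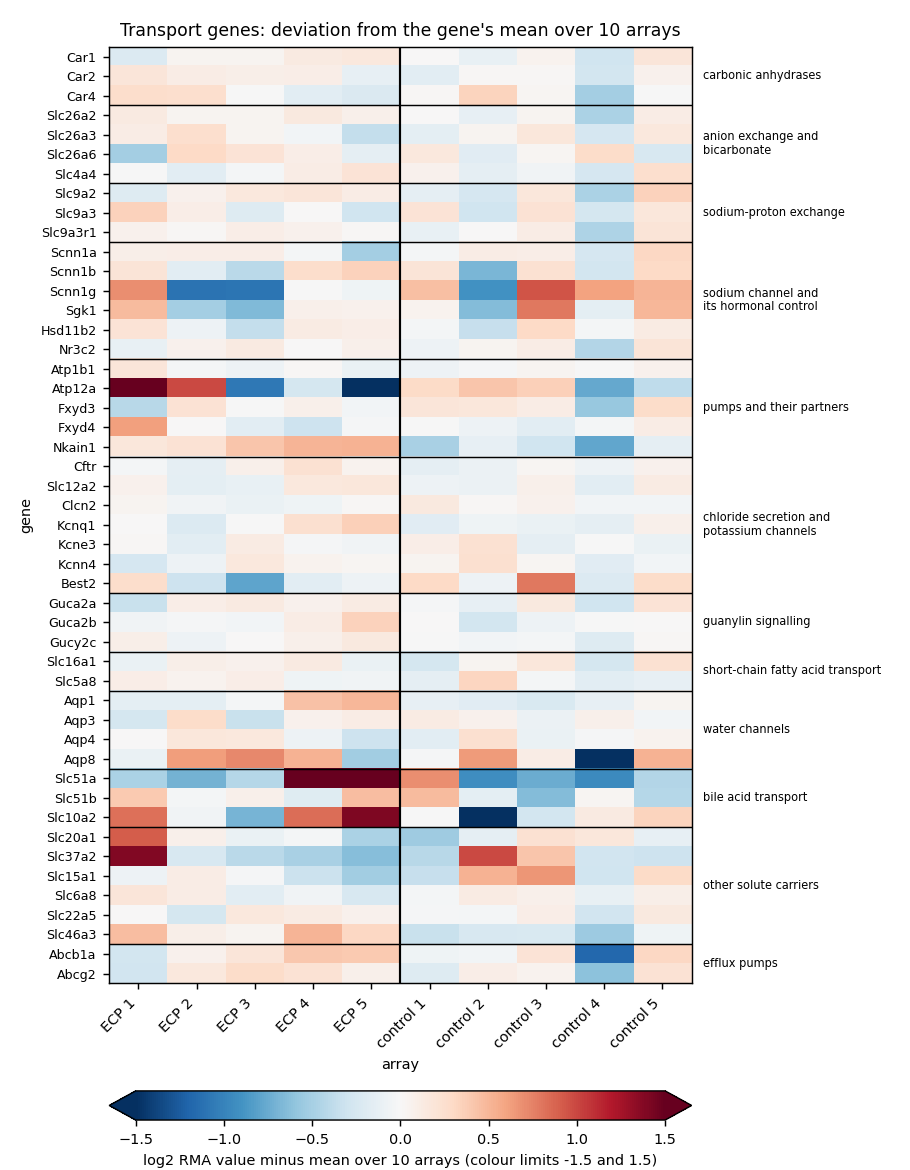
Heat map of each gene's deviation from its mean over the 10 arrays, in log2 units, with genes in rows by role and arrays in columns (ECP replicates left of controls); the colours saturate at the ends of the scale. The column of control replicate 4 is the lowest of the 10 in 20 of the 48 rows, and Atp12a has the widest range over arrays, 4.64.

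Nkain1, which encodes a membrane protein that interacts with the beta subunit of the sodium-potassium pump, had the smallest p of the 48. ECP arrays read 8.02, 8.07, 8.26, 8.36 and 8.37, and control arrays 7.36, 7.72, 7.55, 7.07 and 7.72, in replicate order. Every ECP array lay above every control array, the groups being 8.22 ± 0.16 against 7.48 ± 0.28. The difference was 0.73 (SE 0.13, unadjusted p = 0.000109, limma adjusted p = 0.106), so it did not pass the adjusted threshold. Without control replicate 4 it was 0.63 (unadjusted p = 7.9e-05, limma adjusted p = 0.187), and without control replicates 1 and 4, the 2 arrays with the highest acinar markers, it was 0.55. The other genes of the pump group had differences under 0.1 in size. Atp1b1, the pump's beta subunit, differed by 0.00 (12.70 ± 0.12 against 12.70 ± 0.05, -0.00 without control replicate 4), and Fxyd3 and Fxyd4, small regulators of the pump, by -0.07 (8.59 ± 0.23 against 8.66 ± 0.34) and 0.06 (6.71 ± 0.35 against 6.65 ± 0.10, 0.06 without control replicate 4). For Fxyd3 the difference without control replicate 4 was -0.22.

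Atp12a encodes the catalytic subunit of the colonic proton-potassium pump, which takes up potassium, and it had the widest range over arrays of the 48 genes. ECP arrays read 10.06, 8.52, 6.46, 7.26 and 5.42, and control arrays 7.81, 7.93, 7.89, 6.76 and 7.14. The ECP arrays held both the highest and the lowest value, and their SD was 1.81 against 0.53 in controls. The means came to 7.54 ± 1.81 against 7.51 ± 0.53, differing by 0.04 (SE 0.70), and by -0.15 without control replicate 4.

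Slc46a3, a lysosomal solute carrier, gave ECP values of 8.17, 7.80, 7.76, 8.23 and 8.03, and control values of 7.38, 7.47, 7.49, 7.17 and 7.65. The lowest ECP array was above the highest control array. The means were 7.999 ± 0.21 against 7.43 ± 0.18, the difference 0.57 (SE 0.11, unadjusted p = 0.000334, limma adjusted p = 0.181). Without control replicate 4 it was 0.50 (unadjusted p = 0.000678, limma adjusted p = 0.282), and without control replicates 1 and 4 it was 0.46.

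**Figure D4:**
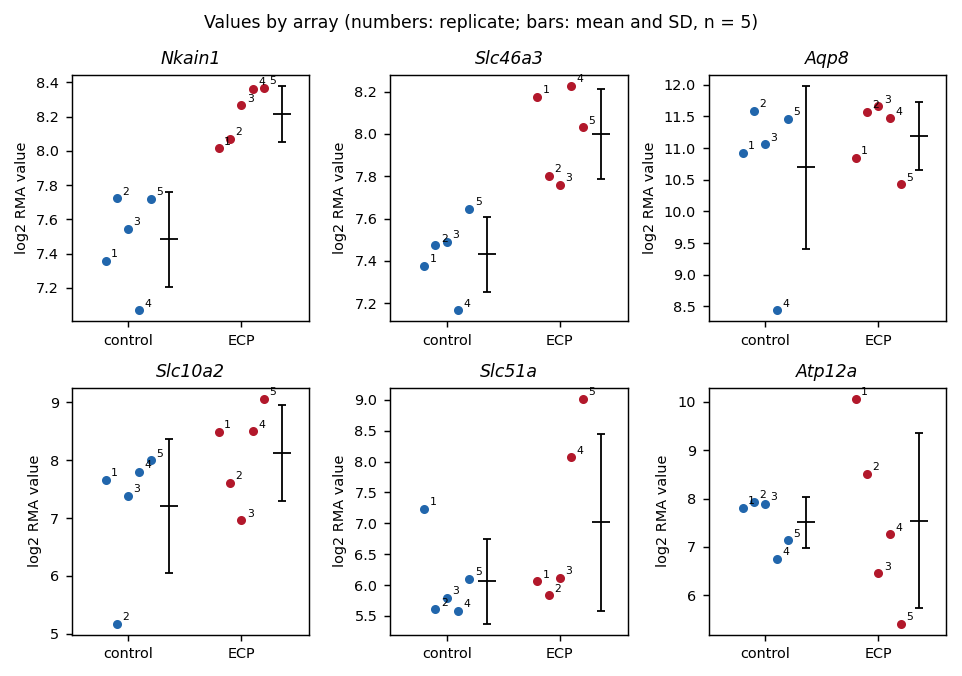
Log2 level on each array for Nkain1, Slc46a3, Aqp8, Slc10a2, Slc51a and Atp12a, with group means and bars of 1 SD (n = 5 per group). Nkain1 and Slc46a3 have groups that do not overlap, the low Aqp8 point is control replicate 4 (8.44), and Atp12a runs from 5.42 to 10.06 within the ECP group.

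Carbonic anhydrases make the bicarbonate and protons that the exchangers carry. Car1 differed by 0.07 (13.20 ± 0.14 against 13.13 ± 0.18) and Car4, the membrane-bound form, by 0.06 (11.85 ± 0.22 against 11.79 ± 0.30), and without control replicate 4 by 0.00 and -0.06. Car2, the cytosolic enzyme, had the smallest p of the 3: ECP arrays read 12.54, 12.48, 12.45, 12.46 and 12.24, and control arrays 12.21, 12.38, 12.38, 12.09 and 12.43. ECP replicate 5 was the lowest of its group and overlapped the controls. Group means were 12.44 ± 0.11 against 12.30 ± 0.15, a difference of 0.14 (SE 0.09, unadjusted p = 0.131), and 0.09 without control replicate 4.

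Of the anion exchangers, Slc26a3, the main chloride-bicarbonate exchanger of the colon surface, differed by 0.01 (12.09 ± 0.23 against 12.09 ± 0.19, -0.05 without control replicate 4). Slc26a6, another such exchanger, differed by -0.02 (6.18 ± 0.32 against 6.20 ± 0.22, 0.05 without control replicate 4) and Slc4a4, the basolateral sodium-bicarbonate cotransporter, by 0.05 (8.97 ± 0.14 against 8.92 ± 0.19, -0.01 without control replicate 4). For Slc26a2, a sulfate and anion exchanger, ECP arrays read 11.28, 11.18, 11.18, 11.29 and 11.22, and control arrays 11.14, 11.02, 11.18, 10.67 and 11.25. Control replicates 1, 2 and 4 lay below every ECP array, with replicate 4 the lowest, and control replicates 3 and 5 lay within the ECP range. The means came to 11.23 ± 0.05 against 11.05 ± 0.23, differing by 0.18 (SE 0.10, unadjusted p = 0.107) and 0.08 without that array. In all, 3 of the 4 genes were higher on ECP arrays and 2 of 4 without control replicate 4.

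Sodium-proton exchange was measured by 3 genes. Slc9a3 (NHE3), the main apical exchanger, differed by -0.02 (12.05 ± 0.25 against 12.07 ± 0.26, -0.08 without control replicate 4) and Slc9a2 (NHE2) by 0.14 (11.07 ± 0.15 against 10.93 ± 0.33), which was 0.03 without control replicate 4. Slc9a3r1, the scaffold that holds the exchanger and CFTR at the apical membrane, read 10.19, 10.14, 10.22, 10.18 and 10.14 on ECP arrays and 10.02, 10.13, 10.23, 9.66 and 10.32 on control arrays. The ECP arrays were closer together (SD 0.03 against 0.26), and the single low value was control replicate 4. By group the level was 10.17 ± 0.03 against 10.07 ± 0.26, a difference of 0.10 (SE 0.11, unadjusted p = 0.359), and 0.00 without that array.

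The epithelial sodium channel has alpha, beta and gamma subunits (Scnn1a, Scnn1b and Scnn1g), and its hormonal control runs through the mineralocorticoid receptor (Nr3c2), the enzyme that keeps glucocorticoids from that receptor (Hsd11b2) and the kinase SGK1. Scnn1g had the lowest difference of all 48 genes. ECP arrays read 7.75, 5.95, 5.96, 7.06 and 6.997, and control arrays 7.51, 6.15, 8.01, 7.66 and 7.57. The groups overlapped, with ECP replicates 2 and 3 and control replicate 2 low and the others at 6.997 or above. Group means were 6.74 ± 0.78 against 7.38 ± 0.71, a difference of -0.64 (SE 0.39, unadjusted p = 0.132, limma adjusted p = 0.998), and -0.57 without control replicate 4. Scnn1a differed by -0.10 (10.17 ± 0.26 against 10.27 ± 0.21, -0.17 without control replicate 4), Nr3c2 by 0.07 (10.91 ± 0.09 against 10.84 ± 0.25, -0.03 without control replicate 4) and Scnn1b by 0.10 (7.98 ± 0.32 against 7.89 ± 0.42, 0.04 without control replicate 4).

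The same 3 arrays were low in some of the other genes of this group, picked after their values were seen. Sgk1 read 10.36, 9.38, 9.22, 9.96 and 9.95 on ECP arrays and 9.93, 9.24, 10.67, 9.74 and 10.39 on control arrays, a difference of -0.22 (9.78 ± 0.47 against 9.99 ± 0.56, SE 0.27, -0.28 without control replicate 4). It ran from -0.41 to -0.05 with each array left out in turn. Hsd11b2 read 11.59, 11.31, 11.03, 11.51 and 11.48 on ECP arrays and 11.36, 11.04, 11.69, 11.36 and 11.51 on control arrays, a difference of 0.00 (11.39 ± 0.22 against 11.39 ± 0.24, -0.01 without control replicate 4). ECP replicates 2 and 3 and control replicate 2 were the 3 lowest arrays in Scnn1g, Sgk1 and Hsd11b2 alike, and control replicate 3 was the highest in each. Scnn1b was lowest on control replicate 2 (7.25) and ECP replicate 3 (7.53), with ECP replicate 2 at rank 4 from the lowest. The other genes of the group did not share this: the 3 arrays held ranks 7 to 9 of 10 in Scnn1a and ranks 5, 6 and 9 in Nr3c2. Distal colon position genes (posterior Hox genes, 6 measured) had means of 5.93 to 6.35 on ECP arrays and 5.87 to 6.17 on control arrays. Their means were 5.99 and 6.09 on ECP replicates 2 and 3, and 6.17, the highest control value, on control replicate 2. The part of these position genes in the array pattern was not tested.

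**Figure D5:**
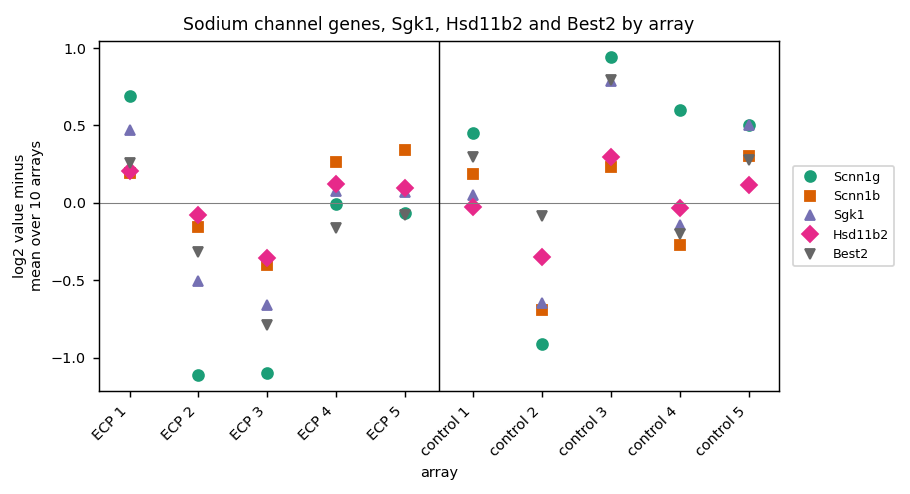
Deviation of Scnn1g, Scnn1b, Sgk1, Hsd11b2 and Best2 from each gene's mean over the 10 arrays, in log2 units, with arrays along the horizontal axis and a vertical line between ECP and control. Scnn1g, Sgk1 and Hsd11b2 have their 3 lowest points on ECP replicates 2 and 3 and control replicate 2.

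Chloride secretion and the potassium channels that sustain it gave small differences except for Best2. Cftr, the apical chloride channel, differed by 0.08 (10.20 ± 0.14 against 10.12 ± 0.09, 0.07 without control replicate 4) and Slc12a2, the basolateral cotransporter that loads chloride, by 0.05 (11.70 ± 0.15 against 11.65 ± 0.12, 0.02 without control replicate 4). Clcn2, a chloride channel, differed by -0.06 (9.43 ± 0.06 against 9.49 ± 0.08, -0.08 without control replicate 4). Of the potassium channel genes, Kcnq1 differed by 0.15 (9.02 ± 0.22 against 8.87 ± 0.10, 0.14 without control replicate 4), its partner Kcne3 by -0.03 (10.46 ± 0.10 against 10.49 ± 0.15, -0.04 without control replicate 4) and Kcnn4 by -0.03 (8.38 ± 0.16 against 8.41 ± 0.15, -0.08 without control replicate 4). Best2 encodes a bicarbonate-conducting anion channel of colonic goblet cells. Its ECP arrays read 9.14, 8.57, 8.10, 8.72 and 8.81, and its control arrays 9.18, 8.80, 9.68, 8.68 and 9.16. Control replicates 1, 3 and 5 were above every ECP array, and control replicates 2 and 4 lay within the ECP range. By group the level was 8.67 ± 0.38 against 9.10 ± 0.39, a difference of -0.43 (SE 0.21, unadjusted p = 0.0602, limma adjusted p = 0.995). Without control replicate 4 it was -0.54 (unadjusted p = 0.0231, limma adjusted p = 0.724), and without control replicate 3 it was -0.29, as it was without ECP replicate 3. The mean of the 7 goblet cell markers was 12.17 to 12.39 on ECP arrays and 11.95 to 12.39 on control arrays.

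Guanylin (Guca2a) and uroguanylin (Guca2b) are peptides that act on the receptor guanylate cyclase C (Gucy2c) and promote fluid secretion. Guca2a differed by 0.04 (12.29 ± 0.20 against 12.25 ± 0.21, -0.03 without control replicate 4) and Gucy2c by 0.09 (11.22 ± 0.09 against 11.13 ± 0.08, 0.06 without control replicate 4). Guca2b had ECP values of 9.50, 9.54, 9.52, 9.67 and 9.91 and control values of 9.57, 9.28, 9.48, 9.55 and 9.57. ECP replicates 4 and 5 were above all controls and the other ECP arrays were not. Group means were 9.63 ± 0.17 against 9.49 ± 0.12, a difference of 0.14 (SE 0.09, unadjusted p = 0.162), 0.15 without control replicate 4 and 0.07 without ECP replicate 5.

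Short-chain fatty acids, the main fuel of colonocytes, enter through Slc16a1 (MCT1) and the sodium-coupled carrier Slc5a8 (SMCT1). Slc16a1 differed by 0.03 (10.99 ± 0.11 against 10.95 ± 0.23) and by -0.03 without control replicate 4. Slc5a8 had ECP values of 11.75, 11.71, 11.75, 11.59 and 11.60 and control values of 11.52, 11.98, 11.62, 11.49 and 11.54. Control replicate 2 was the highest of all, and the other controls were at or below 11.62. The means came to 11.68 ± 0.08 against 11.63 ± 0.20, differing by 0.05 (SE 0.09, unadjusted p = 0.61), 0.02 without control replicate 4 and 0.14 without control replicate 2.

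Of the water channels, Aqp8, an aquaporin of surface colonocytes, had the largest group difference and it rested on 1 array, as was seen only after its values were looked at. ECP arrays read 10.85, 11.58, 11.66, 11.47 and 10.43, and control arrays 10.93, 11.58, 11.06, 8.44 and 11.46. Control replicate 4 was far below all others. By group the level was 11.20 ± 0.54 against 10.69 ± 1.29, a difference of 0.50 (SE 0.52, unadjusted p = 0.352), and -0.06 (SE 0.25) without that array. Aqp1, the aquaporin of vessels and other non-epithelial cells, read 8.87, 8.86, 8.98, 9.44 and 9.51 on ECP arrays and 8.88, 8.84, 8.78, 8.89 and 9.05 on control arrays. ECP replicates 4 and 5 were the highest arrays. Group means were 9.13 ± 0.32 against 8.89 ± 0.10, a difference of 0.24 (SE 0.13, unadjusted p = 0.094), the same without control replicate 4 and 0.15 without ECP replicate 5. The mean of 7 endothelial markers was 7.10 to 7.42 on ECP arrays and 6.82 to 7.54 on control arrays. Aqp3 and Aqp4, basolateral aquaporins, differed by -0.06 (6.03 ± 0.26 against 6.09 ± 0.09, -0.05 without control replicate 4) and -0.02 (11.99 ± 0.20 against 12.01 ± 0.15, -0.02 without control replicate 4).

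All 3 bile acid genes were higher on ECP arrays by group mean, and none of them passed an unadjusted p of 0.05 in the main comparison. Slc10a2 (ASBT) takes up bile acids at the apical membrane, and Slc51a and Slc51b form the basolateral exporter OST. Slc51a read 6.06, 5.84, 6.12, 8.07 and 9.01 on ECP arrays and 7.24, 5.61, 5.79, 5.58 and 6.10 on control arrays. ECP replicates 4 and 5 were the highest, followed by control replicate 1, and the other 3 ECP arrays lay within the control range. The means came to 7.02 ± 1.43 against 6.06 ± 0.69, differing by 0.96 (SE 0.59, unadjusted p = 0.131), 0.84 without control replicate 4 and 0.46 without ECP replicate 5. Slc10a2 read 8.49, 7.61, 6.96, 8.50 and 9.06 on ECP arrays and 7.66, 5.17, 7.39, 7.80 and 7.998 on control arrays. The groups overlapped, and control replicate 2 was the lowest array. By group the level was 8.12 ± 0.83 against 7.20 ± 1.16, a difference of 0.92 (SE 0.53, unadjusted p = 0.108), 1.07 without control replicate 4 and 0.41 without control replicate 2.

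Slc51b, chosen for this after its values were seen, read 10.15, 9.72, 9.83, 9.58 and 10.22 on ECP arrays and 10.23, 9.60, 9.10, 9.79 and 9.33 on control arrays. Group means were 9.90 ± 0.28 against 9.61 ± 0.43, a difference of 0.29 (SE 0.20, unadjusted p = 0.169, limma adjusted p = 0.998). Without control replicate 4 the difference was 0.33 (unadjusted p = 0.139, limma adjusted p = 0.851). Control replicate 1 was the highest array of all, so leaving it out raises the difference. Without control replicates 1 and 4 the difference was 0.56 (unadjusted p = 0.00612, limma adjusted p = 0.542). Without control replicate 3, the lowest array, it was 0.16. ECP replicate 5 was the highest array for Slc10a2 and Slc51a, and for Slc51b it came next to control replicate 1. Small intestine markers, since the ileum is where these bile acid carriers are most abundant, had a mean of 7.30 on ECP replicate 5, 6.97 to 7.30 over ECP arrays and 6.80 to 7.22 over control arrays, and their part in this was not tested. Nr1h4 (FXR), the bile acid receptor, was at 10.36 on ECP replicate 5, its highest value, with a group difference of 0.09. It was nearly as high on control replicates 4 (10.30) and 1 (10.25). Fabp6, the ileal bile acid binding protein, was at 5.44 on ECP replicate 5 against 4.68 to 5.04 on the other arrays. On ECP replicate 4, the next highest array for Slc10a2 and Slc51a, Nr1h4 was at 10.16 and Fabp6 at 4.89.

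Among the other solute carriers, Slc15a1 (PEPT1), which takes up small peptides, was lower on ECP arrays and was picked for this after its values were seen. ECP arrays read 9.94, 10.12, 9.99, 9.68 and 9.49, and control arrays 9.67, 10.53, 10.67, 9.71 and 10.30. Control replicates 2, 3 and 5 were above every ECP array, and control replicates 1 and 4 lay within the ECP range. The means came to 9.84 ± 0.25 against 10.18 ± 0.46, differing by -0.33 (SE 0.20, unadjusted p = 0.125), -0.45 without control replicate 4 (unadjusted p = 0.0381, limma adjusted p = 0.765) and -0.66 without control replicates 1 and 4 (unadjusted p = 0.000922, limma adjusted p = 0.421), and -0.21 without control replicate 3. Slc37a2, a sugar phosphate carrier, was highest on ECP replicate 1 (8.36) and control replicate 2 (7.96), with a group difference of -0.15 (6.89 ± 0.83 against 7.04 ± 0.61, -0.24 without control replicate 4). Slc20a1, a phosphate transporter, differed by 0.15 (9.34 ± 0.51 against 9.19 ± 0.30, 0.22 without control replicate 4), Slc6a8, the creatine carrier, by -0.07 (12.08 ± 0.18 against 12.15 ± 0.10, -0.10 without control replicate 4), and Slc22a5, the carnitine carrier, by 0.03 (8.67 ± 0.17 against 8.63 ± 0.17, -0.04 without control replicate 4).

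The efflux pumps Abcb1a (P-glycoprotein) and Abcg2 (BCRP) return drugs and other compounds to the lumen. Abcb1a read 11.14, 11.48, 11.59, 11.82 and 11.81 on ECP arrays and 11.36, 11.37, 11.63, 10.24 and 11.73 on control arrays. Control replicate 4 was the lowest array by a wide margin. By group the level was 11.57 ± 0.28 against 11.27 ± 0.59, a difference of 0.30 (SE 0.25, unadjusted p = 0.245), and 0.05 without that array. Abcg2 differed by 0.17 (10.41 ± 0.22 against 10.23 ± 0.33), and by 0.04 without it.

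A wider list of 92 other transport genes, of which 83 were measured, gave a median difference of 0.04. Of these, 54 were higher and 29 lower (65.1% higher, against 53.3% of all genes), and 0 had groups that did not overlap (against 1.22% of all genes). Without control replicate 4 the median was 0.01, with 45 higher and 38 lower (54.2% higher, against 51% of all genes). In that comparison 2 had groups that did not overlap (2.41%, against 2.28% of all genes). At an unadjusted p under 0.05 there were 6 genes (7.23%, against 5.08% of all genes), 4 higher and 2 lower, and 0 passed the adjusted threshold. Without control replicate 4 there were 5 (6.02%, against 6.4% of all genes). The 2 higher genes with the smallest p were Slc34a2, a sodium-phosphate cotransporter, and Slc16a3, a lactate transporter. Slc34a2 differed by 0.85 (7.32 ± 0.44 against 6.47 ± 0.74, SE 0.32, unadjusted p = 0.0218, limma adjusted p = 0.89). It read 6.64, 7.33, 7.70, 7.73 and 7.21 on ECP arrays and 5.50, 7.17, 6.81, 5.87 and 6.99 on control arrays. Control replicates 1 and 4, the arrays with the highest acinar markers, were its lowest. Slc16a3 differed by 0.29 (SE 0.12, unadjusted p = 0.029, limma adjusted p = 0.939). The 2 lower genes were Nkain3, a relative of Nkain1 (4.21 against 4.44, difference -0.23, SE 0.09, unadjusted p = 0.02, limma adjusted p = 0.866), and Kcnj15, a potassium channel (4.455 against 4.74, difference -0.29, SE 0.11, unadjusted p = 0.0224, limma adjusted p = 0.89). Both lay well below the array medians of 6.94 to 6.98.

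Markers of other cell types in the tissue were summed up in the same way, as the mean level of each list. Of the macrophage markers 6 of 6 were higher on ECP arrays (means of 7.79 to 8.66 against 7.29 to 8.49), of the smooth muscle markers 7 of 7 (9.48 to 10.09 against 8.91 to 9.81) and of the adipocyte markers 6 of 6 (6.13 to 7.02 against 5.77 to 6.63). Of the acinar markers 0 of 12 were higher on ECP arrays (5.49 to 5.67 against 5.62 to 12.20). Their mean differed by -2.48, and by -1.46 without control replicate 4. Control replicates 2 and 3, at 5.78 and 5.62, lay near the ECP arrays. Of the B cell markers 0 of 7 were higher on ECP arrays (6.00 to 7.08 against 6.18 to 8.66). The difference in their mean was -0.35, and 0.13 without control replicate 4, whose fellow controls lay at 6.18 to 6.39. Of the T cell markers 0 of 6 were higher on ECP arrays (5.65 to 6.18 against 5.62 to 6.98). Their mean differed by -0.16, and by 0.09 without control replicate 4. Neutrophil markers (4 of 6 higher) had means of 7.02 to 7.74 against 6.22 to 8.71. Crypt base markers (4 of 6 higher) had 7.17 to 7.42 against 7.12 to 7.29, and islet markers (2 of 4 higher) 7.28 to 7.60 against 7.28 to 7.72. Small intestine markers were higher in 7 of 9, endothelial markers in 4 of 7 and distal colon position genes in 4 of 6. Pan-epithelial markers (6 of 10 higher) were at 11.68 to 11.72 on ECP arrays and 11.54 to 11.72 on control arrays. Of the mature colonocyte markers 8 of 9 were higher on ECP arrays (11.62 to 11.85 against 11.11 to 11.88). Their mean differed by 0.17, and by 0.05 without control replicate 4. Of the goblet cell markers 6 of 7 were higher, with a difference of 0.05 in their mean, and -0.03 without control replicate 4. Of all genes, 53.3% were higher on ECP arrays. The part of these lists in the transport differences was not tested.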

How the data were processed

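RNA from 10 colon samples (5 ECP, 5 control) was measured on arrays. Per the submitters' processing notes, the authors normalised them with RMA in the oligo package (no versions are stated there); the deposited values are log2 intensities per probe set. Of 22203 probe sets, 19572 carried 1 gene symbol in the platform annotation, and 2631 are unnamed here. The probe set with the highest mean stood for each gene, leaving 19505 genes. The array medians were 6.94 to 6.98, and the number of arrays limits the precision.

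ECP and control arrays were compared with limma 3.58.1 in R 4.3.3 (lmFit and eBayes) over all 19505 genes with Benjamini-Hochberg adjustment and no filter. The code was tested on simulated data. The 48 genes, the role groups, the 15 marker lists and the list of other transport genes were chosen with earlier results of these data known, so no p-value is given over the list. Values are given array by array for genes with an unadjusted p under 0.05 or groups that did not overlap, for the smallest p in each of 12 role groups and for the 3 widest ranges, and any others were picked after their values were seen. Alternatives were median centring, averaging of probe sets, other level filters, a trend and robust fit, array weights, renewed quantile normalisation, the replicate block and leaving out arrays. Upstream sequences come from a RefSeq table (GRCm38.p6), and the build behind the array annotation is not known here.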

Additional observations from a re-analysis of the deposited data

Results flagged for a closer look

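Within a group of 5, a value is singled out here where its gap to the nearest other value, divided by the group's range, is above Dixon's critical value of 0.71. Chance gives about 1 in 20 groups, or 5 of the 98 groups tested (each of the 48 genes and their median deviation, in both ECP and control arrays), and 10 were found. Of these, 4 fell on control replicate 4, which was low in Aqp8 (8.44, next 10.93), Abcb1a (10.24, next 11.36), Fxyd3 (8.06, next 8.73) and Gucy2c (10.99, next 11.14). Control replicate 2 accounts for 3: it was low in Slc10a2 (5.17, next 7.39) and Scnn1g (6.15, next 7.51) and high in Slc5a8 (11.98, next 11.62). ECP replicate 1 was high in Slc37a2 (8.36, next 6.72) and low in Guca2a (11.94, next 12.33), and ECP replicate 5 was low in Scnn1a (9.71, next 10.19). By this rule the median deviation of the 48 genes singled out no array in either group, control replicate 4 included.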

How the results depend on the processing

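No transport gene passed an adjusted p of 0.05 in any of 19 alternatives; the lowest were 0.0524 for Nkain1 and 0.0673 for Slc46a3 with a trend and robust fit. Leaving out each array in turn moved Nkain1 from 0.63 to 0.79 and Slc46a3 from 0.50 to 0.63. Over all genes, 0 were called, with 991 at an unadjusted p under 0.05; 1 was called without the lowest quartile of levels, 7 without genes below the median level, 1 with the trend and robust fit, and 0 to 1 when arrays were left out in turn (1 without control replicate 3). Transport genes with an unadjusted p under 0.05 numbered 5 with array weights (10.4%, against 6.35% of all genes), 5 without control replicates 1 and 4 (10.4%, against 6.6%), and 2 to 5 with each array left out (4.17% to 10.4%, against 4.24% to 6.4%). Whether replicate numbers pair the arrays is not known here. Deviations of same-numbered arrays correlated at -0.244 to 0.076, but differently numbered arrays were not compared, so this cannot exclude pairing. With the replicate block the number of transport genes with an unadjusted p under 0.05 was 4 (8.33%, against 4.54%). Signs turned in at least 1 alternative for 30 of 48 genes and in none for 18, and the cause was not tested. Renewed quantile normalisation turned Atp1b1 (0.023). Array weights turned Car4 (-0.035), Slc26a3 (-0.042), Slc26a6 (0.11), Nr3c2 (-0.0055), Atp12a (-0.11), Slc16a1 (-0.0304), Slc5a8 (-0.0074), Slc22a5 (-0.016). Leaving out control replicates 1 and 4 turned Car1 (-0.0061), Car4 (-0.088), Slc26a3 (-0.12), Slc26a6 (0.12), Slc9a2 (-0.023), Slc9a3r1 (-0.052), Nr3c2 (-0.083), Atp12a (-0.11), Slc12a2 (-0.0103), Guca2a (-0.056), Slc16a1 (-0.13), Slc5a8 (-0.033), Aqp8 (-0.17), Slc22a5 (-0.057), Abcb1a (-0.0072), Abcg2 (-0.036). With each array left out in turn, the sign turned in some of these fits for the genes that follow. Their differences over all such fits, turned or not, ranged from -0.13 to 0.018 (Aqp3), -0.062 to 0.059 (Aqp4), -0.062 to 0.72 (Aqp8), -0.59 to 0.57 (Atp12a), -0.048 to 0.024 (Atp1b1), -0.062 to 0.15 (Car4), -0.22 to 0.027 (Fxyd3), -0.088 to 0.14 (Fxyd4), -0.033 to 0.13 (Guca2a), -0.091 to 0.086 (Hsd11b2), -0.068 to 0.024 (Kcne3), -0.0803 to 0.026 (Kcnn4), -0.034 to 0.12 (Nr3c2), -0.17 to 0.017 (Scnn1a), -0.064 to 0.21 (Scnn1b), -0.026 to 0.097 (Slc16a1), -0.053 to 0.29 (Slc20a1), -0.036 to 0.10 (Slc22a5), -0.055 to 0.097 (Slc26a3), -0.096 to 0.10 (Slc26a6), -0.52 to 0.076 (Slc37a2), -0.0097 to 0.12 (Slc4a4), -0.11 to 0.057 (Slc9a3). With 5 arrays a group, the median standard error of the 48 differences was 0.12.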
